A study of Homo sapiens with 6 samples.

Results

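Peaks of DINO chromatin recovered with the even probe set were compared between untreated and RNase-treated chromatin of U2OS cells, which come from a human osteosarcoma and carry wild-type p53. The members were all peaks on chromosomes 1 to 22 and X in the even lists, 105669 from untreated and 116171 from RNase-treated chromatin. They made up 221840 of the 314001 peaks on these chromosomes in the 4 lists of the series. Cells of both groups, like all cells of the series, had received 0.2 µg/mL doxorubicin, a drug that damages DNA, for 24 h before glutaraldehyde crosslinking. The groups are the samples labelled DINO_ChIRP_EVEN and DINO_ChIRP_RNase_EVEN, with 1 library each. There was thus no spread between replicates, no p-value is given, and each difference is one between these libraries. Read numbers are unknown, and a library read more deeply can give more peaks. The input samples of untreated and RNase-treated chromatin were not analysed here, nor was copy number, which varies along the genome of this aneuploid line.

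The long noncoding RNA DINO is made after DNA damage and takes part in the p53 response, the program by which cells stop dividing or die when their DNA is broken. ChIRP pulls down an RNA with biotinylated oligonucleotides that are complementary to it, together with the DNA crosslinked near it. The oligonucleotides can also pair with DNA directly, and chromatin digested with RNase serves as the control for such recovery. A site that is held by the RNA should be lost from the RNase-treated list, and a site captured without RNA should stay.

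Each peak was put in a class by whether it shared at least 1 bp with a peak of the other even list. Of the untreated peaks, 85462 were shared and 20207, or 19.1%, were found without RNase only. Of the RNase-treated peaks, 85355 were shared and 30816, or 26.5%, were found after RNase only. The class found after RNase was the larger one, in the longer list. With equal numbers of the strongest peaks taken from both lists the classes were nearly the same size, with 22979 untreated-only and 23124 RNase-only peaks, which follows by construction when nearly every shared peak overlaps a single peak of the other list. Counted as regions after joining overlapping peaks, 62.5% of 136152 regions were shared, 14.8% were untreated only and 22.6% were RNase only. The shared peaks covered 20.9 Mb in the untreated list and 22.8 Mb in the RNase-treated list, against 3.19 Mb for the untreated-only peaks and 4.78 Mb for the RNase-only peaks.

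Few peaks lay at the edge of the 1 bp rule. There were 20 untreated peaks whose largest overlap was 1 to 10 bp, with a median fold enrichment of 6.92, and 15 untreated-only peaks that lay 0 to 10 bp from an RNase-treated peak, with a median fold of 6.31. Fold enrichment is the authors' value at the summit, the highest point of a peak, relative to the background that the peak caller used. Most shared sites matched in a simple way. The untreated and RNase-treated peaks formed 84601 pairs in which each peak overlapped the other and no other peak, which took in 98.99% of the shared untreated peaks. In 90.2% of these pairs at least 90% of the narrower peak lay inside the wider one, and in 0.279% (236 pairs) less than 50% did. A stricter rule, with at least 50% of both peaks overlapping, made the unshared classes larger. It gave 24119 untreated-only and 34621 RNase-only peaks, against 20207 and 30816 with the 1 bp rule.

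Peaks of both unshared classes were weak. The median fold was 7.14 in the untreated-only class and 12.7 in the shared untreated peaks, and it was 6.96 in the RNase-only class and 16.0 in the shared RNase-treated peaks. Among untreated-only peaks 314 (1.55%) had a fold of 20 or more, and among shared untreated peaks 28.4% did. In the RNase-treated list 86 RNase-only peaks (0.279%) and 39.9% of the shared peaks had such a fold. The folds belong to each list's own peak calling, so a fold is read against others of its list, also where values of both lists are printed side by side.

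The share of unshared peaks fell through each list as strength rose, and by rank it ran out earlier in the RNase-treated list. Each list was divided by −log10 p-value into 10 deciles of equal size, from decile 1, the weakest, to decile 10, the strongest. Of the untreated peaks, 46.7% were untreated only in decile 1, 18.5% in decile 5, 4.67% in decile 8 and 0.274% (29 peaks) in decile 10. The RNase-only share began higher, at 72.7% of decile 1 of the RNase-treated list. It was 24.2% in decile 5 and 0.465% (54 peaks) in decile 8, and decile 10 held no RNase-only peak among 11617. The upper 3 deciles held 712 untreated-only peaks in the untreated list and 58 RNase-only peaks in the RNase-treated list. Deciles are ranks within lists of different lengths. The upper deciles also began at unlike −log10 p-values, as decile 8 began at 35.1 in the untreated and at 47.1 in the RNase-treated list. The counts of 712 and 58 peaks are therefore not taken at a like threshold.

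**Figure D1:**
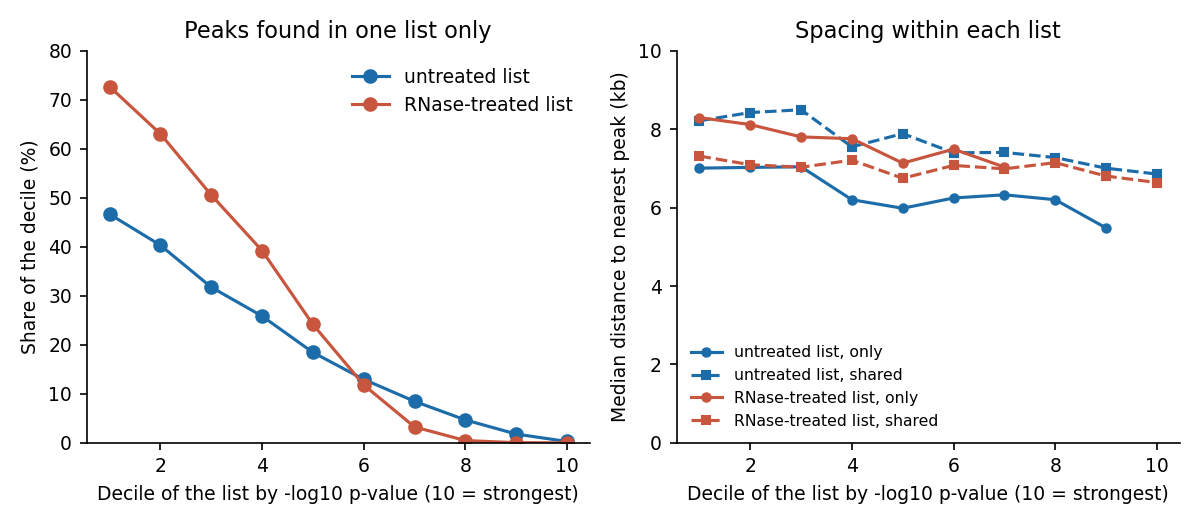
Left, the share of peaks (%) without a counterpart in the other even list, by decile of each list ordered by −log10 p-value. Right, the median distance (kb) from a peak to the nearest peak of the same list, by class, for points with at least 100 peaks. The untreated-only peaks lie below the shared untreated peaks in each decile drawn, while the RNase-only peaks lie above the shared RNase-treated peaks in each decile drawn.

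The strongest untreated-only peak (chromosome 7, 18741689 to 18742056, hg19) had a fold of 48.1, rank 4099 of its list by −log10 p-value. Next came a peak of the same chromosome (29386535 to 29386919), whose fold of 51.1 was the highest of the class. The third (chromosome 12, 13056708 to 13057093) had a fold of 45.2. All 3 were far from the other list, with the nearest RNase-treated peak 11610, 13002 and 9995 bp away. The next in order lay on chromosome 3 at 115231436 to 115231852 (fold 44.2), chromosome 12 at 6455273 to 6455696 (fold 38.1), and chromosome 17 at 80271849 to 80272275 (fold 29.7) and 40243723 to 40244073 (fold 41.9). They were followed by chromosome 8 at 107737218 to 107737569 (fold 44.8), chromosome 11 at 102299563 to 102299974 (fold 44.4) and chromosome 2 at 122281262 to 122281674 (fold 35.0). Of these 10 peaks, the chromosome 8 peak lay nearest to an RNase-treated peak, at 798 bp. None of the 10 overlapped an odd peak, as was usual: of all untreated peaks 1.23% overlapped an untreated and 1.64% an RNase-treated odd peak. Which genes lie there was not analysed here.

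The strongest RNase-only peak (chromosome 7, 43739191 to 43739613) had a fold of 48.0 and rank 13418 in its list. The nearest untreated peak was 26740 bp away. The second, on chromosome 8 at 146150292 to 146150636 (fold 23.03), lay 28328 bp from an untreated peak. The next 3 were on chromosome 6 at 82526125 to 82526508 (fold 32.7) and 167866147 to 167866491 (fold 31.8), and on chromosome 8 at 48609126 to 48609366 (fold 31.1). The others were on chromosome 9 at 84881218 to 84881552 (fold 31.3), chromosome 1 at 41272431 to 41272677 (fold 21.2), chromosome 19 at 54062011 to 54062240 (fold 28.5), chromosome 14 at 66869660 to 66869867 (fold 22.2) and chromosome 20 at 2932026 to 2932378 (fold 27.2). Of these 10, the second chromosome 6 peak was the closest to an untreated peak, at 366 bp, and the chromosome 19 and 14 peaks were 825 and 694 bp away.

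The unshared peaks were narrow. The median width was 137 bp in the untreated-only class (interval of the median 137 to 138) and 210 bp in the shared untreated peaks (209 to 211), a difference of 73 bp. It was 139 bp in the RNase-only class (139 to 140) and 235 bp in the shared RNase-treated peaks (234 to 236), a difference of 96 bp. Each list had a smallest width at which many peaks lay, 123 bp without RNase and 132 bp with RNase. This smallest width was held by 20.6% of the untreated-only peaks and 5.37% of the shared untreated peaks, and by 29.9% of the RNase-only peaks and 3.80% of the shared RNase-treated peaks. Widths of 400 bp or more were found in 46 untreated-only peaks (0.228%) and 7673 shared untreated peaks (8.98%), and in 27 RNase-only peaks (0.0876%) and 11118 shared RNase-treated peaks (13.0%).

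**Figure D2:**
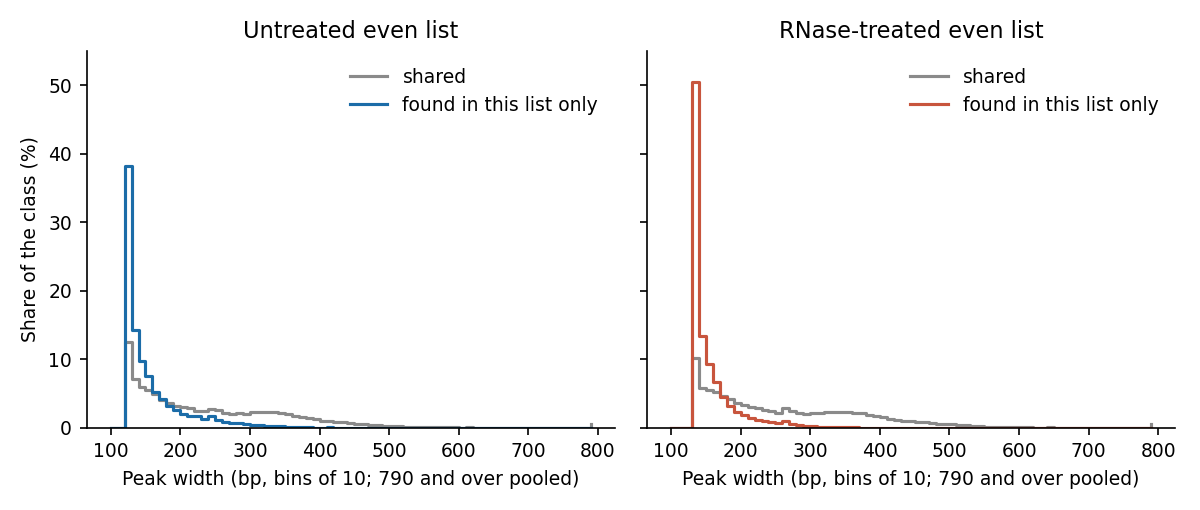
Distribution of peak width (bp, bins of 10) as a share of each class (%), for the untreated list on the left and the RNase-treated list on the right. Both unshared classes crowd at the smallest widths, and the shared peaks have a second, broad shoulder that reaches beyond 400 bp.

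Width went with strength, and the classes differed less within a decile than over the whole lists. In decile 5 of the untreated list the median width was 160 bp in untreated-only and 165 bp in shared peaks. In the same decile of the RNase-treated list it was 164 bp in RNase-only and 173 bp in shared peaks. The gap was wider in some stronger deciles, as in decile 7 of the RNase-treated list (197 bp against 227 bp). Across the pairs, width and fold moved together, with a Spearman rho of 0.84 in the untreated and 0.81 in the RNase-treated list. These correlations are across 84601 sites of the same libraries, which are not replicates.

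The widest untreated-only peaks were on chromosome 17 at 77673091 to 77673832 (742 bp, fold 12.5), chromosome 8 at 38626233 to 38626960 (728 bp, fold 7.20) and chromosome 3 at 133135279 to 133135917 (639 bp, fold 23.1). No untreated-only peak reached 800 bp, whereas 440 shared untreated peaks did. The RNase-only class had 2 peaks of at least 800 bp, and they were neighbours on chromosome X, at 139805407 to 139806401 (995 bp, fold 8.25) and 139806868 to 139807846 (979 bp, fold 16.7). They belonged to 1 cluster of 4 RNase-treated peaks, and the nearest untreated peak was 448 bp from the second. The third widest was on chromosome 16 at 9247062 to 9247673 (612 bp, fold 21.1).

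Shared sites were slightly wider after RNase. In the pairs the median width was 209 bp without and 235 bp with RNase, and the median of the ratio within a pair was 1.10 (quartiles 0.961 and 1.28). The RNase-treated peak was the wider one in 58207 pairs (68.8%) and the narrower one in 30.5%. Over all pairs the RNase-treated start lay a median of 10 bp lower and the end a median of 10 bp higher than in the untreated peak. These medians do not show that single peaks widened evenly on both sides. The RNase-treated peak contained the whole untreated peak in 45.7% of pairs, and the untreated peak contained the RNase-treated one in 13.2%. The smallest width of the RNase-treated list was itself 9 bp larger. The ratio was highest for the weakest decile of untreated peaks, at 1.19 (124 bp against 158 bp), and lowest for the strongest, at 1.05 (407 bp against 433 bp). These deciles follow untreated strength, which went with untreated width. The weakest untreated peaks lay near their smallest width of 123 bp, below the 132 bp of the RNase-treated list. How much of the fall of the ratio goes with the ordering and the smallest widths was not tested.

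The summits of shared sites coincided closely and moved in neither direction. The median distance between the RNase-treated and the untreated summit was 20 bp (interval of the median 19 to 20). The signed distance, RNase-treated minus untreated, had a median of 0 bp, with 90% of pairs between -57 and 58 bp. The RNase-treated summit lay at the higher coordinate in 49.0% of pairs, at the lower one in 49.5% and at the same base in 1.52%. The summits were within 50 bp of each other in 86.3% of pairs and within 100 bp in 98.7%. Since paired peaks overlap, the widths of the peaks limit how far apart their summits can be.

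Strong sites had the closer summits. The median distance was 28 bp for the weakest decile of untreated peaks and 16 bp for the strongest, and distances over 100 bp fell from 3.35% to 0.749% of pairs. Large distances were more frequent among wide peaks. Distances over 100 bp occurred in 1.01% of pairs in which both peaks were under 400 bp, in 2.30% of those whose wider peak was at least 400 bp but under 800 bp, and in 13.8% (57 of 414) of those with a peak of 800 bp or more. The median distance in these groups was 20, 17 and 18 bp.

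**Figure D3:**
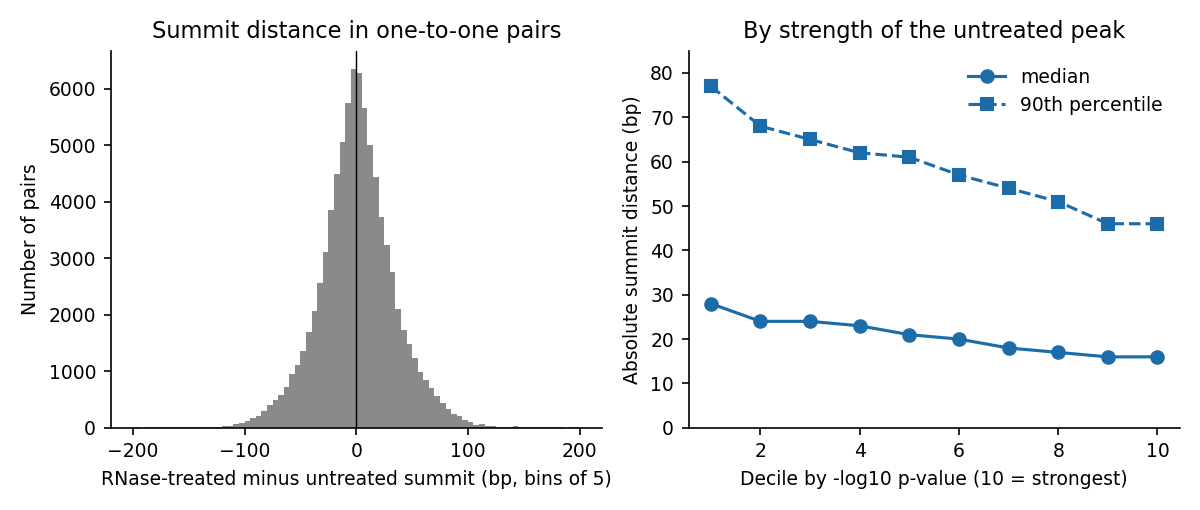
Left, the number of pairs by the signed distance from the untreated to the RNase-treated summit (bp, bins of 5, shown from -200 to 200). Right, the median and the 90th percentile of the absolute distance (bp) by strength of the untreated peak. The distribution is centred at 0, and both lines fall from the weakest to the strongest decile.

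The largest summit distance was on chromosome 9, where the untreated peak at 126734012 to 126736525 (2514 bp, fold 41.3) and the RNase-treated peak at 126733943 to 126736532 (2590 bp, fold 81.4) had summits 1928 bp apart. The edges of these peaks differed by 69 and 7 bp. The next distances were 1125 bp on chromosome 5 (untreated peak 3784894 to 3786667), 1113 bp on chromosome 21 (45024004 to 45025981), 1101 bp on chromosome 2 (240267155 to 240268863) and 822 bp on the same chromosome (238037179 to 238038855). In all 5 the untreated peak was at least 1677 bp wide, and each edge differed by 198 bp at most. The outlines of these sites nearly coincided while the highest points within them differed. Summits were over 500 bp apart in 20 pairs in all.

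The 5 pairs with the highest smaller fold had summits at most 85 bp apart. On chromosome 13 the peak at 109945459 to 109947313 had a fold of 153 without and 265 with RNase, and its summits were 4 bp apart. On chromosome 4 the peak at 181486828 to 181488757 had folds of 148 and 242, with summits 1 bp apart. The other 3 were on chromosome 17 at 715600 to 716467 (folds 148 and 159, summits 46 bp apart), chromosome 4 at 180584702 to 180585723 (143 and 293, 85 bp) and chromosome 18 at 74684113 to 74684699 (133 and 209, 19 bp). Over all pairs the order of the sites by fold was similar in both lists, with a Spearman rho of 0.77 for fold and 0.76 for width. The points share the genome's sequence and the copy number of the cells.

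Some shared sites were divided differently by the lists. There were 222 untreated peaks that overlapped 2 or more RNase-treated peaks, and 319 RNase-treated peaks that overlapped 2 or more untreated peaks. The most divided untreated peak was on chromosome 7 at 76626153 to 76628426 (2274 bp, fold 28.4) and overlapped 4 RNase-treated peaks. The RNase-treated peaks that overlapped 4 untreated peaks were on chromosome 7 at 158573807 to 158575420 (fold 60.5) and on chromosome 11 at 356729 to 357990 (fold 10.4) and 1148300 to 1150301 (fold 53.1).

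Spacing differed between the classes, in opposite directions in the lists. The median distance from an untreated-only peak to the nearest untreated peak was 6684 bp (6512 to 6837), against 7527.5 bp (7445 to 7619) for a shared untreated peak, a difference of -843.5 bp. The distance from an RNase-only peak to the nearest RNase-treated peak was 7913 bp (7775 to 8061), against 6953 bp (6876 to 7038) for a shared one, a difference of 960 bp. Untreated-only peaks thus lay in closer company than shared peaks of their list, and RNase-only peaks in looser company. The order was the same in all 10 deciles of the untreated list, as in decile 1 (7006 against 8213.5 bp) and decile 5 (5982.5 against 7886 bp). In the RNase-treated list it held in deciles 1 to 7 and in decile 9, which had 4 RNase-only peaks. It was the other way round in decile 8, with 54 such peaks (5849.5 against 7146 bp). The shortest distance between neighbours was 37 bp in each list. When a peak of the other list within 500 bp was enough to be shared, the differences were -193 bp (-365 to 1.83) and 1604.5 bp (1438 to 1752). This setting takes peaks with close neighbours out of the unshared classes.

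Clusters were formed from peaks of a list whose neighbouring edges were at most 5 kb apart. The untreated list had 17417 clusters of at least 2 peaks, which held 41179 peaks, and the RNase-treated list had 19430 clusters with 45478 peaks. Most were small, as 74.6% and 75.7% of the clusters held 2 peaks. Of the untreated-only peaks 41.7% were in a cluster (Wilson 95% interval 41.0 to 42.3), against 38.3% of the shared untreated peaks (38.0 to 38.7), 3.33 percentage points more. Of the RNase-only peaks 36.5% were in a cluster (36.0 to 37.0), against 40.1% of the shared ones (39.8 to 40.4), a difference of -3.62 percentage points. With peaks within 500 bp taken as shared, the untreated difference was -0.161 (-0.925 to 0.606) and the RNase-treated one -6.80 (-7.44 to -6.17). The untreated interval took in differences of both signs. With edges at most 1000 bp apart they were 0.861 and -1.23.

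Few clusters were made of unshared peaks alone, in lists where such peaks were 19.1% (untreated) and 26.5% (RNase-treated) of all peaks. Whether there were fewer than these shares alone would give was not tested. At least 1 untreated-only peak was present in 7058 untreated clusters (40.5%), and 601 clusters (3.45%) held nothing else. The corresponding numbers were 9231 (47.5%) and 1128 (5.81%) for RNase-only peaks. Among untreated clusters of 2 peaks, 64.1% had no untreated-only peak, 31.5% had 1 and 4.38% had 2. Among RNase-treated clusters of 2 peaks the shares were 55.6%, 37.2% and 7.22%.

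Close neighbours in the joined map had the same unshared class somewhat more often than the neighbours of shared regions had it. Within 500 bp, 20.2% of the neighbours of an untreated-only region were untreated only, against 16.4% of the neighbours of a shared region. Of the neighbours of an RNase-only region 26.3% were RNase only, against 19.9% for a shared region. With no limit of distance the untreated-only share beside an untreated-only region was 16.1%, and the RNase-only share beside an RNase-only region was 24.9%, against 14.97% and 22.2% beside shared regions.

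Unshared peaks were seldom near misses of a peak in the other list. An RNase-treated peak lay within 100 bp of 203 untreated-only peaks (1.005%, Wilson 95% interval 0.876 to 1.15) and within 1000 bp of 11.4% (11.01 to 11.9). For shared untreated peaks, a further RNase-treated peak that did not overlap lay within 100 bp in 0.701% (0.647 to 0.759) and within 1000 bp in 10.6% (10.4 to 10.8). The RNase-only peaks had an untreated peak within 100 bp in 0.824% (0.729 to 0.932) and within 1000 bp in 8.67% (8.36 to 8.99). For shared RNase-treated peaks the values were 0.643% (0.592 to 0.699) and 10.1% (9.95 to 10.4). Within 100 bp both unshared classes were thus slightly above the shared peaks of their list. The median gap to the other list was 6361 bp for untreated-only and 9059 bp for RNase-only peaks. From a shared peak to the next peak of the other list that did not overlap, it was 7017 bp (untreated) and 7604 bp (RNase-treated). A gap of kilobases was therefore usual for shared peaks too, and the gap of untreated-only peaks was the shorter one.

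The largest cluster was the same site in both lists. On chromosome 7 at 158116534 to 158135511, 16 untreated peaks with folds of 6.84 to 40.8 lay within 18978 bp, and all 16 were shared. The RNase-treated list had 18 peaks there, at 158116511 to 158135473, with folds of 4.56 to 68.2, and 4 of them were RNase only. The next untreated clusters had 12 peaks each and lay on chromosome 10 at 102375656 to 102405862 (3 untreated only) and on chromosome 14 at 75076119 to 75101562 (2 untreated only). The next RNase-treated clusters lay on chromosome 11 at 69030873 to 69051056 (11 peaks, 3 RNase only) and on chromosome 4 at 3859064 to 3876754 (10 peaks, 1 RNase only). These largest clusters were made mainly of shared peaks, as were the lists as a whole, with 80.9% (untreated) and 73.5% (RNase-treated) of peaks shared.

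The clusters with the most unshared peaks were others. The untreated clusters with the most untreated-only peaks, 5 each, lay on chromosome 9 at 130306552 to 130320898 (7 peaks, folds 4.997 to 17.9) and on chromosome 11 at 72403821 to 72426196 (11 peaks, folds 6.05 to 35.4). A cluster on chromosome 12 at 119453328 to 119463004 held 4 peaks, all untreated only, with folds of 5.38 to 12.3, around 1 RNase-treated peak (fold 6.54) that overlapped none of them. In the RNase-treated list 2 clusters had 6 RNase-only peaks. The cluster on chromosome 16 at 73280051 to 73287208 consisted of these 6 peaks, with folds of 4.98 to 12.9, and held no untreated peak over its 7158 bp. The cluster on chromosome X at 105593351 to 105614489 held 10 peaks, with folds of 4.87 to 124. On chromosome 11, in 1 of the 10 clusters with 4 RNase-only peaks, these had folds of 6.12 to 10.2 and lay within 1937 bp at 3776866 to 3778802.

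The make-up of the lists varied along the genome, and the unshared classes took opposite orders over the chromosomes. The untreated-only share was highest on chromosome 19, at 22.2% of 2726 peaks (Wilson 95% interval 20.6 to 23.8), and lowest on chromosome 4, at 16.5% of 5305 peaks (15.5 to 17.5). The RNase-only share was highest on chromosome X, at 36.7% of 3344 peaks (35.0 to 38.3), and lowest on chromosome 22, at 20.1% of 2109 peaks (18.4 to 21.8). Counted up to the last peak end, chromosome X had 16.5 untreated peaks per Mb, the lowest density, and chromosome 17 had 48.1, the highest. On the same measure chromosome X had 7.92 RNase-only peaks per Mb, and only chromosome 21 had fewer, at 7.34. Its shared untreated peaks were the sparsest of all, at 13.7 per Mb. The high RNase-only share of chromosome X thus went with few shared peaks, and not with a high density of RNase-only peaks. Chromosome 17 had an RNase-only share of 21.9% and an untreated-only share of 20.7%. These densities also count long stretches without peaks. The median distance to the nearest untreated peak was shortest on chromosome 22, at 4903 bp. It was 5829 bp on chromosome 17 and longest on chromosome X, at 14686 bp. The number of RNase-treated peaks per untreated peak ran from 1.31 on chromosome X to 0.989 on chromosome 22. Across the 23 chromosomes, which are not replicates and share their libraries, the density of untreated peaks had a Pearson r of 0.70 with the untreated-only share and of -0.83 with the RNase-only share. The Spearman rho was 0.64 and -0.73. These values use the density up to the last peak end. Untreated peaks enter both that density and the classes, so the quantities are not independent.

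**Figure D4:**
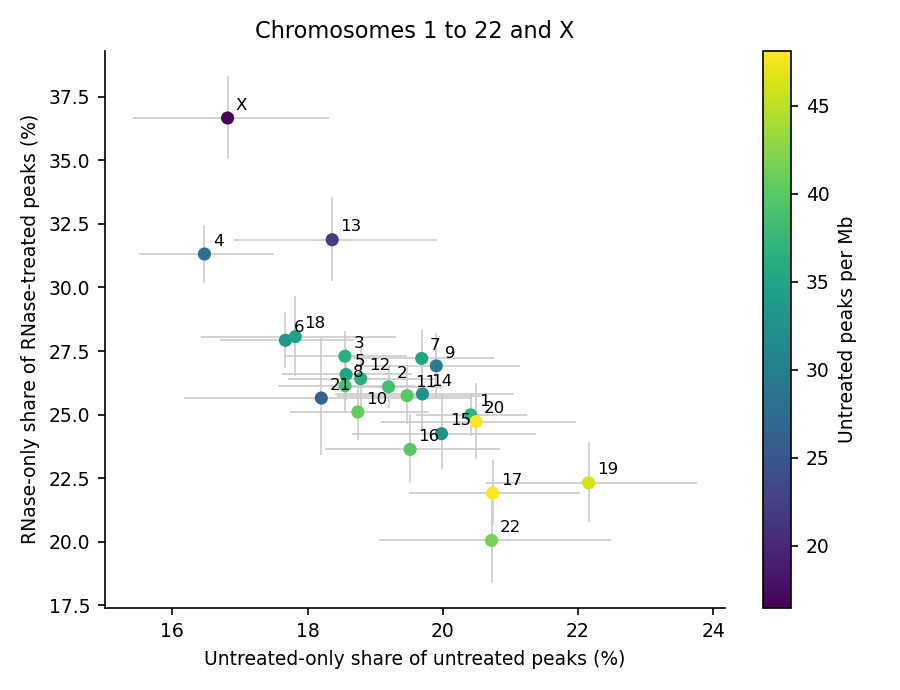
Untreated-only share of the untreated peaks (%, horizontal) and RNase-only share of the RNase-treated peaks (%, vertical) on each chromosome, with Wilson 95% intervals, which cover counting error only. Colour gives untreated peaks per Mb up to the last peak end. Chromosomes X, 4 and 13 stand at the upper left and chromosomes 19, 17 and 22 at the lower right.

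The RNase-only share of chromosome X was higher than that of the other chromosomes together by 10.4 percentage points (8.80 to 12.1), and its untreated-only share was lower by 2.36 points (difference -2.36, -3.78 to -0.843). Peaks of chromosome X were also weaker, with a median fold of 10.1 in the untreated and 10.4 in the RNase-treated list, against 10.9 and 11.8 over all chromosomes. Among peaks of deciles 3 to 5, the RNase-only share was 43.1% on chromosome X (40.1 to 46.1), 42.3% on chromosome 4 (40.1 to 44.5), 40.5% on chromosome 13 (37.4 to 43.7) and 38.0% in all, so that at like strength the intervals of chromosome X and of these chromosomes overlapped. The untreated-only share in these deciles was 17.7% on chromosome X (15.3 to 20.4) and 25.4% in all. Among peaks with −log10 q of 10 or more the difference of the RNase-only share was 5.22 points. The difference of the untreated-only share was -0.131 (-1.74 to 1.55) with reciprocal overlap of 50% and -0.437 (-2.10 to 1.37) with this limit on q. With equal numbers of peaks it was -0.753 (-2.31 to 0.890). Each of these intervals took in differences of both signs.

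Windows of the genome showed the same order when pooled over all chromosomes, which includes the differences between chromosomes. In the 296 windows of 10 Mb with at least 100 untreated peaks, the number of untreated peaks had a Spearman rho of 0.56 with the untreated-only share and of -0.76 with the RNase-only share. The counts were not scaled for windows that run past a chromosome end or hold long stretches without peaks. A low count can therefore also come from a window that is only partly filled, and the counts are not densities. In the 74 windows with the fewest untreated peaks, 107 to 259 each, 16.7% of the untreated peaks were untreated only and 33.1% of the RNase-treated peaks were RNase only. In the 74 with the most, 466 to 743 each, the shares were 21.2% and 21.97%. The ratio of RNase-treated to untreated peaks was 1.24 in the former and 1.01 in the latter windows. The windows were ordered by untreated peaks, which also divide this ratio and are the counterparts that make an RNase-treated peak shared. Part of the higher ratio and RNase-only share in windows with few untreated peaks thus follows by construction. The untreated-only peaks are part of the untreated count, so the axes are not independent.

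Single windows reached further. The untreated-only share was highest on chromosome 16 at 30000001 to 40000000 (39 of 150 peaks, 26.0%), chromosome 20 at 60000001 to 70000000 (61 of 235, 26.0%) and chromosome 1 at 20000001 to 30000000 (138 of 536, 25.7%). It was lowest on chromosome 13 at 60000001 to 70000000 (13 of 133, 9.77%), chromosome X at 1 to 10000000 (12 of 120) and chromosome 21 at 10000001 to 20000000 (13 of 127, 10.2%). The same chromosome 13 window had one of the highest RNase-only shares, 96 of 216 peaks (44.4%, Wilson 95% interval 38.0 to 51.1). It was exceeded by the windows of chromosome X at 20000001 to 30000000 (78 of 174, 44.8%) and 110000001 to 120000000 (84 of 188, 44.7%). The lowest RNase-only shares were on chromosome 8 at 140000001 to 150000000 (80 of 533, 15.01%), chromosome 17 at 70000001 to 80000000 (119 of 687, 17.3%) and chromosome 9 at 130000001 to 140000000 (118 of 648, 18.2%). The last 2 of these had untreated-only shares of 23.4% and 23.6%.

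The odd probe set gives a measure of local density that the classes did not use. This comparison and its alternatives were added after seeing the data. Of untreated even peaks with 0 to 4 untreated odd peaks in the surrounding 1 Mb, 15.1% were untreated only (Wilson 95% interval 13.8 to 16.6), and of those with 20 or more, 21.5% (20.8 to 22.2). The RNase-only share of RNase-treated even peaks went from 37.2% (35.6 to 38.8) to 21.98% (21.3 to 22.7) over the same steps. The differences between these steps were 6.34 and -15.2 percentage points. Neighbourhoods that were rich in odd peaks were therefore also those where even peaks were more often untreated only and less often RNase only. Among peaks with −log10 q of 10 or more the differences were 3.37 and -9.01 points, and with equal numbers of peaks 4.07 and -11.1 points. The median fold was lower in the sparse neighbourhoods, at 10.3 in the untreated and 10.4 in the RNase-treated list, than in the dense ones, at 11.2 and 12.1. Its part in the result was not tested.

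**Figure D5:**
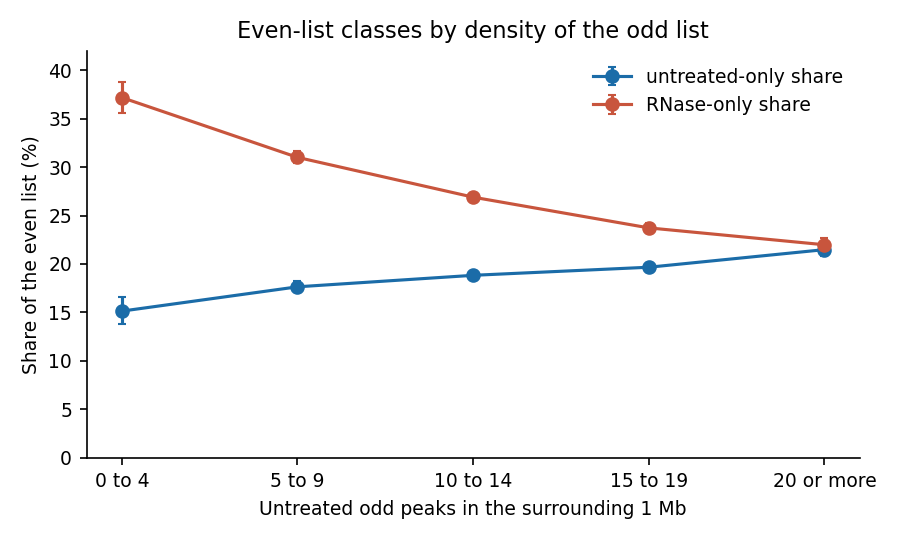
Share of untreated even peaks that were untreated only and of RNase-treated even peaks that were RNase only (%), by the number of untreated odd peaks in the 1 Mb around the summit, with Wilson 95% intervals that cover counting error only. The RNase-only share falls from 37.2% to 21.98% and the untreated-only share rises from 15.1% to 21.5%.

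The outer parts of the chromosomes resembled the dense neighbourhoods. Within 1 Mb of the outermost peak of a chromosome, 21.2% of 2439 untreated peaks were untreated only (19.6 to 22.8), and 22.7% of 2477 RNase-treated peaks were RNase only (21.1 to 24.4). More than 20 Mb from the outermost peaks the shares were 18.6% (18.3 to 18.9) and 27.7% (27.3 to 27.99). Peaks were also closer together within 1 Mb of the outermost peaks. There the nearest untreated peak was a median of 4596 bp away, against 8198 bp at more than 20 Mb.

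Peaks of the odd probe set, a readout that the classes did not use, rarely coincided with even peaks of any class. An untreated odd peak overlapped 1.32% of the shared untreated even peaks (Wilson 95% interval 1.24 to 1.40) and 0.851% of the untreated-only peaks (0.734 to 0.988), a difference of 0.466 percentage points. An RNase-treated odd peak overlapped 1.77% of the shared RNase-treated even peaks (1.68 to 1.86) and 1.19% of the RNase-only peaks (1.07 to 1.31), a difference of 0.579 points. Over the whole lists the shared peaks thus met the odd list of the same treatment more often than the unshared peaks did. Shared peaks were also wider, which was not allowed for. Of the 1126 shared untreated peaks that overlapped an untreated odd peak, 475 were in decile 10. In the RNase-treated list 469 of 1508 were. An untreated-only peak overlapped an untreated odd peak in 172 cases and an RNase-treated odd peak in 252.

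The strongest shared sites, which were also the widest, had the most overlap with odd peaks. In decile 10 of the untreated list 4.51% of the shared peaks (475 of 10537) overlapped an untreated odd peak, against 0.680% to 1.21% of the shared peaks in deciles 1 to 9. In decile 1 the values were 0.976% of the shared and 0.791% of the untreated-only peaks. The order turned in some deciles, as in decile 5, with 0.743% of the shared peaks and 1.44% (28 of 1950) of the untreated-only peaks. In the RNase-treated list, decile 10, which was all shared, overlapped an RNase-treated odd peak in 4.04%. In its decile 1 the values were 1.20% of the shared and 1.23% of the RNase-only peaks. Within the weaker deciles neither class thus had the higher overlap throughout.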

How the data were processed

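Per the submitters' processing notes, the authors used Bowtie, MACS2 and the build hg19. Versions, thresholds and control libraries were not given in the sources used here. Deposited lists have the narrowPeak layout, 1 list per library. They hold the authors' fold enrichment (a linear ratio), 2 columns of −log10 values (for p-value and q-value) at each summit, and an integer score, which was not used. Coordinates are 1-based in hg19. Per-class values, distances and clusters were computed with Python (3.11.15), pandas (2.3.3), numpy (2.4.6) and scipy (1.17.1), and drawn with matplotlib (3.10.9). Intervals of shares are Wilson 95% intervals, those of medians come from binomial order statistics, and those of differences join both. They cover counting error alone, as if peaks were independent, which neighbours are not. Density per chromosome divides its peaks by its last peak end. Simulated lists of 5377 and 4751 peaks, on which the counting was tested, gave back all 10 planted quantities.

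The named positions follow a rule: the 10 strongest and 3 widest peaks of each unshared class, 5 pairs each by smaller fold and by summit distance, 3 clusters each by size and by unshared peaks, and the extreme chromosomes and windows. The members, classes and alternatives were chosen with earlier results of these data known. Sequence, genes and repeats at the peaks were not analysed here.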

Additional observations from a re-analysis of the deposited data

Results flagged for a closer look

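Mitochondrial DNA, which the comparisons left out, was covered more without RNase. The 9 untreated even peaks covered 3449 bp, and the 7 RNase-treated even peaks covered 2107 bp. Of the untreated peaks, 3 had no RNase-treated counterpart (2048 to 2188, 3356 to 3711 and 9431 to 9556), and each RNase-treated peak overlapped an untreated one. The mitochondrial peaks all had low folds for their lists, 2.74 to 4.79 without RNase and 1.56 to 3.20 with RNase. On the chromosomes compared, the median fold was 10.9 in the untreated and 11.8 in the RNase-treated list. The difference in covered bases, which rests on these few weak peaks, was flagged because it lay outside the main comparison. Whether it came from the RNase treatment was not tested.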

How the results depend on the processing

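Of 104 values recomputed under alternatives, 35 moved beyond their interval (for counts, beyond 1.5 times), 1 reversed and 68 did neither. Differences below are unshared minus shared for spacing and clusters, and shared minus unshared for width and odd overlap. With reciprocal overlap of 50%, spacing differed by -1074 bp (untreated) and 676 bp (RNase-treated), clustering by 4.40 and -2.43 points, chromosome X by -0.131 points (untreated-only share), RNase-treated width by 91 bp, and the untreated-only share by odd density by 4.601 points. With summits within 200 bp the untreated list gave 71 bp in width, -1051.5 bp in spacing and 4.27 points in clustering. With peaks within 500 bp taken as shared, widths differed by 71 and 93 bp and spacing by -193 and 1604.5 bp. Clustering then differed by -0.161 (-0.925 to 0.606, reversed in sign only) and -6.80 points. This setting removes peaks with close neighbours from the unshared classes by construction. Among peaks with −log10 q of 10 or more there were 12878 untreated-only peaks and a summit distance of 18 bp. Widths then differed by 86 and 118 bp, RNase-treated clustering by -2.85 points, chromosome X by -0.437 and 5.22 points, untreated odd overlap by 0.614 points and the shares by odd density by 3.37 and -9.01 points, and 9.53% of RNase-only peaks lay within 1000 bp of an untreated peak. With equal numbers of peaks the untreated list gave 75 bp in width, -607 bp in spacing and 2.36 points in clustering. Chromosome X differed by -0.753 and 7.58 points and the shares by odd density by 4.07 and -11.1 points. Linking at 1000 bp gave 0.861 and -1.23 points in clustering. No paired analysis was possible because each condition had 1 library. Without read numbers, a missing peak may be a site below the depth of that library.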
